A study of Mus musculus with 4 samples.

Results

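The genes described here encode the eukaryotic translation initiation factors (eIFs) and elongation factors (eEFs) of the mouse, with their direct repressors. They were taken by symbol, as the gene names that start with Eif and a digit from 1 to 6, or with Eef1 or Eef2, leaving out the Eif2ak kinases and the pseudogene names. This gave 59 of the 22757 gene symbols analysed, each with 1 entry in the files. RNA came from the amygdala, taken from both hemispheres, of NpyCre/+;TRAPlox/lox mice. Every library carried this genotype, in which Cre is driven by Npy, the neuropeptide Y gene, so by the labels the groups differ in the RNA fraction and not in genotype. Translating ribosome affinity purification (TRAP) recovers RNA on tagged ribosomes of Cre-expressing cells as an immunoprecipitate (IP), and total RNA of the same tissue is the input. There were 2 IP and 2 input libraries with 3 mice pooled in each, and the labels give no age, sex or treatment of the mice.

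Translation initiation begins when eIF2 brings the initiator tRNA to the small ribosomal subunit, with eIF1, eIF1A, eIF3 and eIF5 helping to find the start codon. The eIF4F complex binds the mRNA cap and opens the leader, eIF5B joins the large subunit, and then eEF1A delivers each aminoacyl-tRNA while eEF2 moves the ribosome along. In neurons these steps are regulated in cell bodies and near synapses, chiefly through phosphorylation of eIF2, release of eIF4E from its binding proteins and phosphorylation of eEF2 by its kinase.

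Values are in FPKM, a read count scaled by transcript length and by the mapped reads of the library, as the authors deposited them, and a gene's values are given for replicate 1 and then replicate 2. Enrichment of Npy RNA in IP was looked at first, which does not check the genotype, as every library carries it. Npy was at 105 and 99.2 FPKM in input and at 1240 and 1167 FPKM in IP. All 4 markers tested for each of astrocytes, oligodendrocytes and microglia were lower in IP, with summed levels of 99.9 to 106, 325 to 349 and 19.1 to 21.8 FPKM in input against 15.2 to 20.4, 72.7 to 82.6 and 0.9 to 1.52 FPKM in IP, and 0 of these markers were at 0 in any library. The input thus held RNA of glia that the IP held less of, and the part of this in the differences described below was not tested. In such bulk samples, fewer cells of a type and less RNA per cell cannot be told apart. Of 3 glutamatergic neuron markers 2 were lower in IP and 1 did not pass, and the 1 endothelial marker tested and 2 of 2 nuclear RNAs were lower. Of 3 genes listed as marking the amygdala, Rspo2 was at 2.6 to 3.57 FPKM over the 4 libraries, Prkcd was lower in IP, and Tfap2d was at 0.0636 to 0.874 FPKM. The libraries also differed in Y-linked RNA although each IP is described as coming with its own input: Ddx3y was at 0.0522 and 0.161 FPKM in input and at 2.53 and 3.85 FPKM in IP, and Xist was at 1.95 and 1.29 FPKM in input and at 0.305 and 0.33 FPKM in IP. The Y-linked member Eif2s3y is therefore given apart from the others. The reason for this difference was not tested.

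All but a few members were well expressed. In each library the 59 genes together made up 1.2% to 1.25% of the summed FPKM. Of the 59, 56 were at 1 FPKM or more in every library. Eif2s3y reached 1 FPKM in the IP libraries alone, so it was tested because of the group in which it was high. Eif4e1b, which encodes an oocyte form of the cap-binding protein, was listed at 0.0303 FPKM in input replicate 1 and at 0 in the other libraries. Eif3j1 was listed at 0 in all 4 libraries, and its entry covers nearly the same stretch of chromosome 2 as Eif3j2, so the reads of both copies may stand under Eif3j2. The members with the highest levels per length were Eef1a1, Eef1a2, Eif5a and Eif4a2, which held 43.5% of the members' summed FPKM in input and 39.7% in IP. The median level of the 59 members was 29.4 FPKM in input and 33.7 FPKM in IP.

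**Figure D1:**
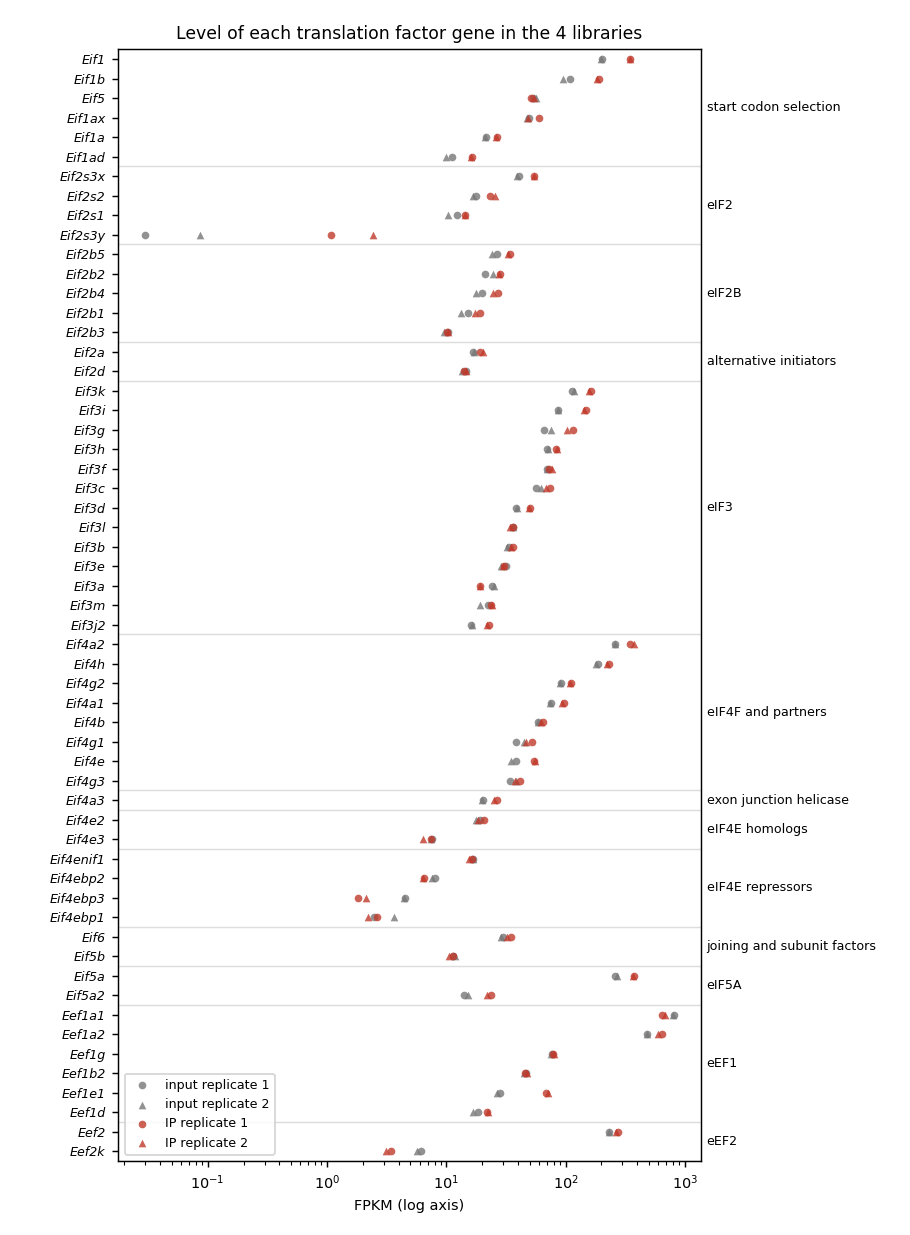
FPKM (log axis) of the 57 tested factor genes, 1 row a gene, grouped by complex and ordered by level, with circles for replicate 1 and triangles for replicate 2 of input (grey) and IP (red). The points of a gene lie close together beside the range between genes, Eif2s3y stands apart with input values near 0, and the IP points of Eef1e1, Eif1, Eif1b and Eif3i lie clearly to the right of input.

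As deposited, most factor genes that differed were higher in the ribosome-bound RNA of the Npy-Cre cells, by modest amounts. The 5 that were lower were the regulators Eef2k, Eif4ebp2 and Eif4ebp3, and also Eef1a1 and Eif3a. With limma on log2(FPKM + 1) and Benjamini-Hochberg adjustment over the 12416 genes tested, 33 of the 57 tested members were higher in IP (57.9%, against 37.0% of all genes tested), 5 were lower (8.77%, against 33.9%) and 19 did not pass. Without Eif2s3y the counts were 32 and 5 of 56. The median change of the members was 0.26 on this log2 scale, from -0.88 for Eif4ebp3 to 1.34 for Eif2s3y, and 2 members had a change of at least 1 in size, Eif2s3y and Eef1e1. Both IP values lay above both input values for 39 members (68.4%, against 45.0% of all genes tested) and below them for 7 (12.3%, against 41.4%). The authors' confidence intervals lay apart in the same way for 30 members upward (52.6%, against 29.8%) and for 4 downward (7.02%, against 27.3%).

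How many members were called, and in which direction, rested on the scaling between libraries. The FPKM of a library summed to 334759 and 335119 in input and to 423985 and 419349 in IP. After the values of every library were divided to add up to 1000000, called rescaling below, the median change of all genes tested moved from 0.03 to -0.29. Then 10 members were higher (17.5%, against 17.9% of all genes tested) and 22 were lower (38.6%, against 53.9%), with a member median of -0.08. Quantile normalization, which gives every library the same distribution of values, left 16 higher (28.1%, against 35.3%) and 15 lower (26.3%, against 30.2%), with medians of -0.02 for the members and 0.05 for all genes. A correction for transcript length left 29 higher (50.9%, against 34.1%) and 9 lower (15.8%, against 31.5%). The share of members called higher was therefore near or under that of all genes after rescaling or quantile normalization, while the share called lower was under that of all genes in each of these settings. With the median-of-ratios scaling added to the deposited, rescaled and quantile values, 8 members other than Eif2s3y were called higher under all 4 scalings, namely Eef1e1, Eif1, Eif1b, Eif1ad, Eif3g, Eif3i, Eif4e and Eif5a2. Eef1a1, Eef2k, Eif3a and Eif4ebp3 were called lower under all 4. The share of all genes tested that was called alike under all 4 was not computed, so these counts have no background beside them. Ratios between genes of the same library do not depend on a rescaling of the library, and they are given below for the paralogs and for factors with their inhibitors. Counts by complex and by role below cover few genes each. They stand beside 37.0% higher and 33.9% lower over all genes tested as deposited, and 17.9% and 53.9% after rescaling.

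**Figure D2:**
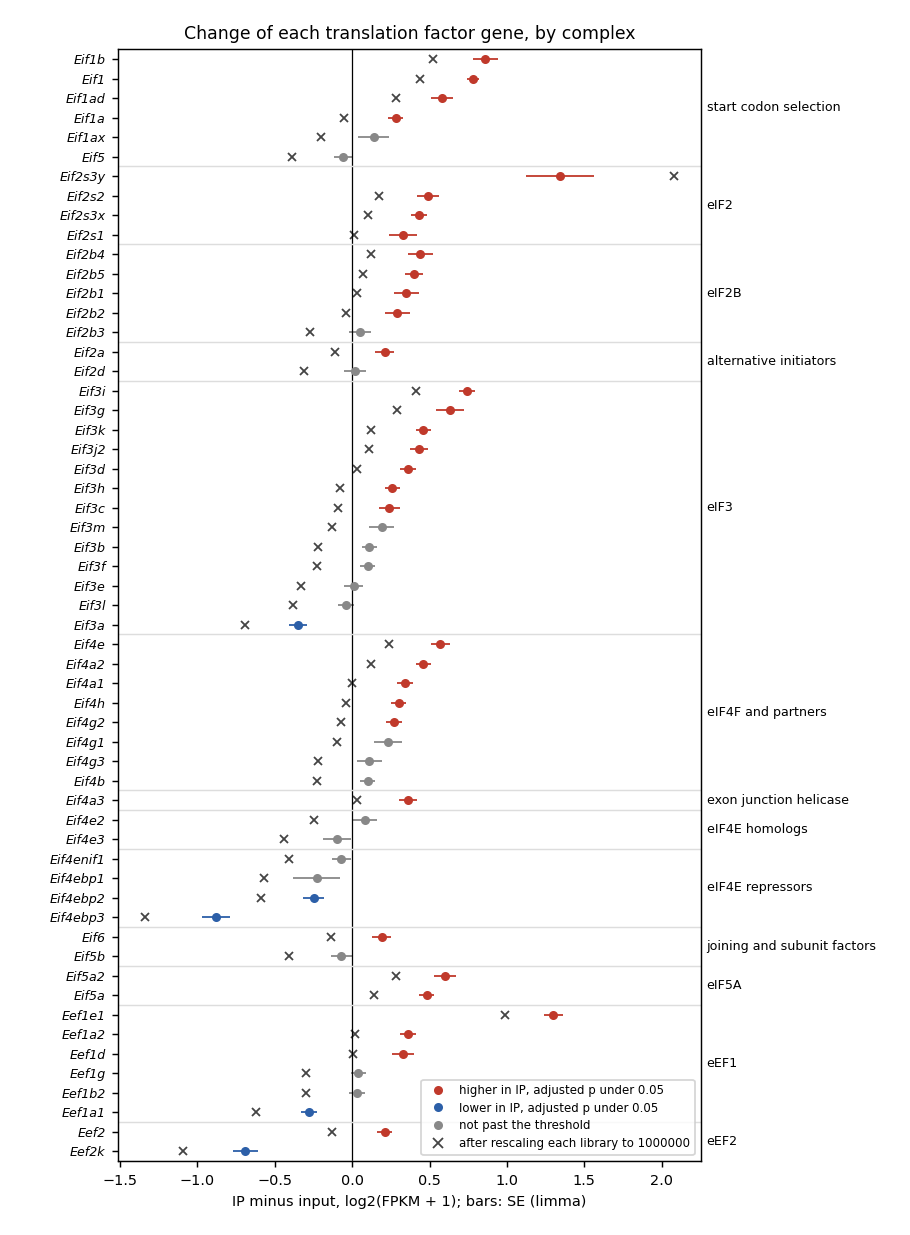
Difference of IP minus input in log2(FPKM + 1) for the 57 tested members, grouped by complex, as points with SE bars (limma, n = 2 libraries a group), coloured by call, with a cross for the value after rescaling each library to a sum of 1000000. As deposited most points lie right of 0, and for 23 members, Eef2 and Eif4h among them, the cross lies on the other side of 0 from the point, for Eif4a1 by a hair (-0.0011). Eif2s3y was tested through its IP level alone, so its colour is no support.

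Among the factors that select the start codon, the genes of the small ribosome-binding factor eIF1 and its close copy eIF1B were higher in IP. Of the 6 genes, 4 rose, 0 fell and 2 missed the threshold, where 37.0% of all genes tested rose and 33.9% fell. The median of the 6 was 0.43 as deposited and 0.12 after rescaling, when 3 were higher and 1 was lower. Eif1, which guards against initiation at the wrong codon, was at 204 and 198 FPKM in input and at 346 and 347 FPKM in IP. The groups lay far apart beside the spread of the replicates, and Eif1 rose by 0.78 (SE 0.04; limma, adjusted p = 4.01e-05). Eif1b was at 110 and 95.3 FPKM in input and at 191 and 182 FPKM in IP, a rise of 0.86 (SE 0.08; limma, adjusted p = 0.000164). The share of Eif1b in the sum of the pair overlapped between groups, at 35.1% and 32.5% in input and 35.6% and 34.4% in IP. The coding sequences of the pair are identical at 81.1% of bases and their proteins at 92% of residues, with no shared run longer than 25 bases, under the read length of 100 bp. The stretch of 60 coding bases in which they differ most, coding bases 250 to 309 in each (GENCODE M21, GRCm38, capitals where the copies differ), shows how reads can be assigned to one copy or the other.
Eif1: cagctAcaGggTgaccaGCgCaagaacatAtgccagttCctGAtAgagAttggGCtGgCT
Eif1b: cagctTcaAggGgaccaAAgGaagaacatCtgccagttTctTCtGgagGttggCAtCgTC
These 17 differences within 60 bases leave few reads of this stretch that would match both.

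The other genes of this step moved less. Eif1a and Eif1ax encode nearly the same protein, eIF1A, which works with eIF1 during scanning. Eif1a was at 21.6 and 21.3 FPKM in input and at 26.7 and 26 FPKM in IP, a rise of 0.28 (limma, adjusted p = 0.00379) that became -0.05 and did not pass after rescaling. Eif1ax was at 49.8 and 47.6 FPKM in input and at 60.1 and 48.1 FPKM in IP, so that the IP libraries disagreed and only the first lay clear of input. The difference of 0.14 for Eif1ax did not pass (limma, adjusted p = 0.262), but without IP replicate 2 it was 0.30 and passed (adjusted p = 0.0101). Eif5, which triggers hydrolysis of the eIF2-bound GTP at the start codon, was at 53.7 and 56.9 FPKM in input and at 51.7 and 54.6 FPKM in IP and did not pass (-0.06; limma, adjusted p = 0.409). Eif1ad, named for its eIF1A domain, rose by 0.58 (limma, adjusted p = 0.000613), from 11.1 and 9.94 to 16.4 and 16.1 FPKM, but it overlaps Banf1, which was at 55.3 to 103 FPKM, and the counting is not stated to use strand.

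The 3 genes of eIF2 on autosomes and the X chromosome were higher in IP as deposited, by 0.33 to 0.49, and the Y-linked gene is given apart. eIF2 carries the initiator tRNA, and phosphorylation of its alpha subunit is the switch of the integrated stress response. Eif2s1, the alpha subunit, was at 12.3 and 10.3 FPKM in input and at 14.3 and 14.5 FPKM in IP, and rose by 0.33 (SE 0.09; limma, adjusted p = 0.0163), a call that ended when input replicate 2 was left out (0.21; adjusted p = 0.0771) and when IP replicate 2 was (adjusted p = 0.0562). Eif2s2, the beta subunit, rose by 0.49, from 17.6 and 16.7 to 23.3 and 25.6 FPKM (limma, adjusted p = 0.00103). Eif2s3x, the gamma subunit gene on the X chromosome, rose by 0.43 from 40.5 and 39.3 to 54.5 and 54.1 FPKM (limma, adjusted p = 0.000414). After rescaling these 3 differences were 0.01, 0.17 and 0.10, and none of the 3 passed. The ratio of Eif2s1 to Eif2b5, the catalytic subunit gene of the exchange factor, overlapped between groups, at 0.466 and 0.427 in input and 0.414 and 0.442 in IP.

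The gamma subunit has a second gene on the Y chromosome. Eif2s3y was at 0.0297 and 0.0859 FPKM in input and at 1.09 and 2.41 FPKM in IP, with no overlap. It passed the filter on low values through its IP libraries alone, so its test is not read as support and its difference of 1.34 is a description. Its share in the sum of both gamma subunit genes was 0.0732% and 0.218% in input and 1.97% and 4.27% in IP, so the X-linked copy held nearly all of that sum in every library. The X and Y copies are identical at 86.3% of coding bases, with no shared run longer than 34 bases. Coding bases 601 to 660 are shown because reads of the copies must be told apart for the Eif2s3y value to stand (GENCODE M21, GRCm38, capitals where they differ).
Eif2s3x: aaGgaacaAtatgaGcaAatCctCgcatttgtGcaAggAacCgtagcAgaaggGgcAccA
Eif2s3y: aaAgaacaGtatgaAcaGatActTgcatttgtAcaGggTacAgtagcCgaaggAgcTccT
The copies differ at 14 of these 60 bases. The Y-linked genes Ddx3y, Kdm5d and Uty moved with Eif2s3y, with IP means 29.9-fold, 20.4-fold and 16.8-fold the input means, against 30.3-fold for Eif2s3y.

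The exchange factor eIF2B, which reloads eIF2 with GTP and is blocked by phosphorylated eIF2, was modestly higher in IP as deposited. Of its 5 genes 4 rose, 0 fell and 1 missed the threshold, where 37.0% of all genes tested rose and 33.9% fell. The median of the 5 was 0.35, but after rescaling it was 0.03 with 0 higher and 1 lower. Eif2b4, the delta subunit, had the largest difference, from 20 and 17.8 to 27.3 and 24.5 FPKM (0.44; limma, adjusted p = 0.00344; 0.12 after rescaling). Eif2b3, the gamma subunit, had the smallest, at 10.3 and 9.56 FPKM in input and 10.2 and 10.4 FPKM in IP with overlapping groups (0.05; limma, adjusted p = 0.527; -0.27 after rescaling). Eif2b5 rose by 0.40. The rises of Eif2b1 (0.35) and Eif2b2 (0.29) were not stable. Eif2b1 did not pass without input replicate 2 (0.27; limma, adjusted p = 0.0786), and Eif2b2 did not pass without input replicate 1 (0.19; adjusted p = 0.072), nor when IP replicate 1 was left out (adjusted p = 0.0552), and was at -0.04 after rescaling.

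Eif2a and Eif2d encode factors that can deliver initiator tRNA without eIF2. Eif2a was at 16.9 and 17 FPKM in input and at 19.2 and 20.4 FPKM in IP (0.21; limma, adjusted p = 0.0185; -0.11 after rescaling). This rise needed 3 of the libraries, as the adjusted p was 0.0875 with input replicate 1 left out, 0.0813 with input replicate 2 left out and 0.086 with IP replicate 2 left out. It also overlaps Serp1, at 18.9 to 20.3 FPKM. Eif2d was at 14.7 and 13.6 FPKM in input and at 14.1 and 14.7 FPKM in IP, overlapping, and did not pass (0.02; limma, adjusted p = 0.825).

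The subunits of eIF3, the largest initiation factor and the scaffold that holds the small subunit to the mRNA, did not move as 1 block. Of the 14 genes 13 were tested, and 7 rose, 1 fell and 5 missed the threshold, where 37.0% of all genes tested rose and 33.9% fell. The median of the 13 was 0.24 as deposited, -0.09 after rescaling (2 higher and 5 lower) and -0.10 with quantile normalization. Eif3i, whose product is a WD-repeat protein, was at 87.1 and 85.9 FPKM in input and at 149 and 142 FPKM in IP, the largest rise among the subunits (0.74, SE 0.05; limma, adjusted p = 5.83e-05). Eif3g, the subunit that binds RNA and eIF3i, was at 65.5 and 75.6 FPKM in input and at 116 and 103 FPKM in IP (0.63, SE 0.09; limma, adjusted p = 0.000977), and it did not pass once transcript length was corrected for (adjusted p = 0.074). Eif3a, the largest subunit and the core of the complex, went the other way. It was at 24.1 and 25.3 FPKM in input and at 19.1 and 19.2 FPKM in IP, without overlap, and fell by 0.35 on the log2 scale (SE 0.06; limma, adjusted p = 0.0019).

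Within a library, the ratio of Eif3i to Eif3a was 3.62 and 3.4 in input and 7.78 and 7.4 in IP, a difference of 2.16-fold between the means that does not depend on a rescaling of libraries. It does move with transcript length, as Eif3i has 1123 bases and Eif3a 5125, and after the length correction their changes were 0.33 and -0.18, against 0.74 and -0.35 without it. In the same way Eif3g over Eif3b was 1.94 and 2.33 in input and 3.16 and 2.93 in IP, and after the length correction the changes of Eif3g and Eif3b were 0.21 and 0.05. Eif3i lies with Eif3b and Eif3g in 1 module of the complex, but Eif3b itself did not pass, at 33.8 and 32.5 FPKM in input and 36.6 and 35.1 FPKM in IP (0.11; limma, adjusted p = 0.111; -0.22 after rescaling). As a share of the summed eIF3 FPKM, Eif3i held 13.1% and 12.6% in input and 17% and 16.8% in IP, and Eif3f, a subunit of the octamer core, held 10.6% and 10.2% in input and 8.33% and 9.15% in IP. Eif3k, also of that core, was the highest subunit per length in all 4 libraries, with shares of 17.1% and 17.3% in input and 18.5% and 18.5% in IP.

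The remaining eIF3 genes had differences between -0.04 and 0.46. Eif3k (0.46), Eif3j2 (0.43), Eif3d (0.36), which can itself bind the cap, Eif3h (0.26) and Eif3c (0.24) rose as deposited, and Eif3h and Eif3c were at -0.08 and -0.09 after rescaling. The Eif3c call ended with input replicate 1 left out (limma, adjusted p = 0.105) and with IP replicate 1 left out (adjusted p = 0.0676). Eif3f (0.10), Eif3e (0.01), Eif3l (-0.04) and Eif3m (0.19) did not pass, and without input replicate 1 the difference of Eif3m was 0.29 and passed (limma, adjusted p = 0.0275), as it did in the fit blocked by replicate number (0.19, adjusted p = 0.0398). Eif3j2, for the loosely bound subunit that occupies the decoding site, was at 16.2 and 16.4 FPKM in input and at 22.7 and 21.9 FPKM in IP, with the limit from Eif3j1 given above and an overlap with Spg11 at 1.74 to 3.99 FPKM.

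**Figure D3:**
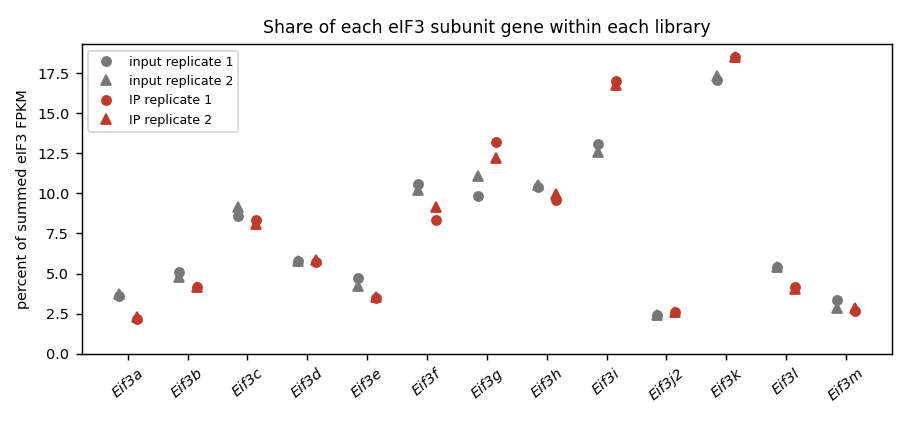
Percent of the summed eIF3 FPKM held by each of the 13 subunit genes detected, in the 4 libraries, with circles for replicate 1 and triangles for replicate 2 of input (grey) and IP (red). The share of Eif3i was 13.1% and 12.6% in input and 17% and 16.8% in IP, and that of Eif3a was 3.62% and 3.72% against 2.18% and 2.27%.

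For the cap-binding complex eIF4F and its helper proteins, the cap-binding protein gene itself had the largest difference. Of 8 genes 5 rose, 0 fell and 3 missed the threshold, where 37.0% of all genes tested rose and 33.9% fell. The median of the 8 was 0.29, which was -0.05 after rescaling (1 higher, 2 lower) and 0.41 when corrected for transcript length. Eif4e, which binds the mRNA cap and is the limiting subunit of eIF4F in many cells, was at 38.1 and 35.2 FPKM in input and at 54.9 and 55 FPKM in IP, and rose by 0.57 (SE 0.06; limma, adjusted p = 0.000251). Its homologs did not pass. Eif4e2, a repressive cap-binding homolog, was at 19.2 and 17.8 FPKM in input and 20.9 and 18.4 FPKM in IP (0.08; limma, adjusted p = 0.397; -0.25 after rescaling). Eif4e3 was at 7.53 and 7.39 FPKM in input and 7.39 and 6.4 FPKM in IP (-0.10; limma, adjusted p = 0.318). The share of Eif4e in the sum of the 3 detected family members was 58.8% and 58.3% in input and 66% and 68.9% in IP, without overlap (exact permutation test, two-sided, p = 0.333, the smallest that 2 against 2 allows).

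The helicase eIF4A is encoded by a pair of genes that share most of their protein sequence. Eif4a2, the form that predominates in brain, was at 262 and 260 FPKM in input and at 345 and 374 FPKM in IP, a rise of 0.46 (SE 0.05; limma, adjusted p = 0.000504) that was 0.12 and did not pass after rescaling and was -0.02 with quantile normalization. Eif4a1 was at 75.3 and 74.7 FPKM in input and at 96.7 and 93.1 FPKM in IP (0.34; limma, adjusted p = 0.00104; -0.0011 after rescaling and -0.02 with quantile normalization). Eif4a2 held 77.7% of the pair's sum in both input libraries and 78.1% and 80.1% in IP. The copies share 78.2% of coding bases and 90.6% of residues, and the stretch in which they differ most is shown because this share rests on telling them apart (coding bases 275 to 334 of Eif4a1 and 281 to 340 of Eif4a2, GENCODE M21, GRCm38, capitals where they differ).
Eif4a1: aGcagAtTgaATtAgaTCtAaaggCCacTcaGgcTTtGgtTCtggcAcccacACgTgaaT
Eif4a2: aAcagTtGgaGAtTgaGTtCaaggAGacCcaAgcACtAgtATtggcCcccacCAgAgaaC
They differ at 23 of these 60 bases. Eif4a3, whose product sits in the exon junction complex and not in eIF4F, was at 20.2 and 19.9 FPKM in input and at 26.7 and 25.3 FPKM in IP (0.36; limma, adjusted p = 0.00178), a rise that was 0.03 and did not pass after rescaling.

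Among the scaffold and helper genes, Eif4g2, which encodes the scaffold DAP5 that lacks the eIF4E site, was the highest per length, at 91.3 and 89.8 FPKM in input and 111 and 108 FPKM in IP. It rose by 0.27 as deposited (limma, adjusted p = 0.00233) and was at -0.07 after rescaling. Eif4g1, the main scaffold, was at 38.5 and 44.7 FPKM in input and 51.9 and 46.2 FPKM in IP and did not pass (0.23; limma, adjusted p = 0.0553), though it passed with input replicate 2 left out (0.34, adjusted p = 0.0461) and with IP replicate 2 left out (0.32, adjusted p = 0.0351). In the blocked fit Eif4g1 also passed (0.23; limma, adjusted p = 0.0384). Eif4g3 was at 34.3 and 38.5 FPKM in input and at 41.3 and 37.7 FPKM in IP, overlapping (0.11; limma, adjusted p = 0.225; -0.22 after rescaling). The helicase cofactor genes Eif4h and Eif4b differed in size, with Eif4h rising from 187 and 180 to 232 and 222 FPKM (0.30; limma, adjusted p = 0.00196; -0.04 after rescaling, and called lower at -0.18 with quantile normalization) and Eif4b at 59.1 and 58.9 FPKM in input and 64.3 and 62.8 FPKM in IP (0.10; limma, adjusted p = 0.089; -0.23 after rescaling). Eif4b held 24% and 24.6% of their sum in input and 21.7% and 22.1% in IP.

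Among the repressors that hold or move eIF4E, the gene of 1 binding protein was clearly lower in IP. Of the 4 genes, 0 rose, 2 fell and 2 missed the threshold, where 37.0% of all genes tested rose and 33.9% fell. The median of the 4 was -0.24, and after rescaling, when 53.9% of all genes tested were lower, 4 of 4 were. Eif4ebp3 was at 4.49 and 4.43 FPKM in input and at 1.82 and 2.13 FPKM in IP, a mean 0.443 times that of input, and fell by 0.88 on the log2 scale (SE 0.09; limma, adjusted p = 0.000289). Eif4ebp2, the main eIF4E-binding protein of neurons, was at 8.02 and 7.63 FPKM in input and at 6.53 and 6.36 FPKM in IP and fell by 0.25. The adjusted p of Eif4ebp2 was 0.0203 (limma), and it rose to 0.11 with input replicate 1 left out, to 0.0616 with input replicate 2 left out and to 0.0722 with IP replicate 2 left out. It was 0.165 with quantile normalization (-0.12) and 0.739 with the length correction (-0.03). Eif4ebp1 was at 2.47 and 3.66 FPKM in input and at 2.65 and 2.22 FPKM in IP, overlapping, and did not pass (-0.23; limma, adjusted p = 0.222), but it passed without input replicate 1 (-0.44, adjusted p = 0.0467) and was at 0.11 with quantile normalization. Eif4enif1, which carries eIF4E into the nucleus, was at 16.6 and 16.8 FPKM in input and 16.3 and 15.4 FPKM in IP (-0.07; limma, adjusted p = 0.331).

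Set against each other within a library, Eif4e stood at 2.54 and 2.24 times the summed FPKM of Eif4ebp1, Eif4ebp2 and Eif4ebp3 in input and at 5 and 5.13 times in IP. The ratio of the means was 2.12, and both IP values lay above both input values. Within the 3 binding protein genes, Eif4ebp2 held 53.6% and 48.5% of the sum in input and 59.4% and 59.3% in IP. These are levels of RNA and say nothing of the phosphorylation that sets how much eIF4E the proteins hold.

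**Figure D4:**
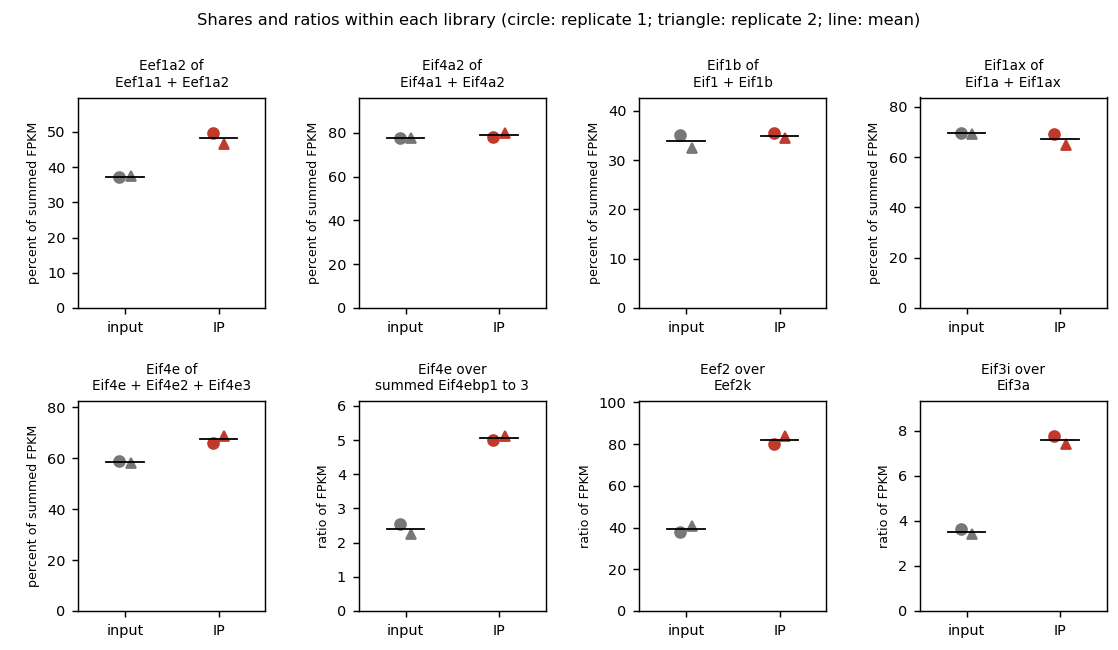
Shares (percent of summed FPKM) and ratios of FPKM within each library for paralog pairs and for factors with their inhibitors or partners, 1 panel each, with axes from 0, circles for replicate 1, triangles for replicate 2 and a line for the mean of 2 libraries. The ratios of Eif4e to its binding protein genes, of Eef2 to Eef2k and of Eif3i to Eif3a were all at least 2.08-fold higher in IP, while the shares of Eif1b and Eif1ax overlapped between groups. The trend of change with transcript length was not removed from these ratios.

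The factors of subunit joining differed little. Eif5b, the GTPase that joins the subunits, was at 11.5 and 11.8 FPKM in input and 11.4 and 10.6 FPKM in IP (-0.07; limma, adjusted p = 0.359; 0.28 and called higher when corrected for transcript length), and it overlaps Rev1, at 4.36 to 6.75 FPKM. Eif6, which keeps free large subunits from joining, was at 29.7 and 29 FPKM in input and at 34.7 and 32.6 FPKM in IP. The rise of Eif6 (0.19; limma, adjusted p = 0.0241; -0.14 after rescaling) ended when input replicate 1 was left out (adjusted p = 0.0791), and likewise for input replicate 2 (0.117) and IP replicate 1 (0.106).

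Both genes of eIF5A, the factor that relieves ribosome stalls and carries the modified lysine hypusine, were higher in IP, as were both genes of the enzymes that make hypusine. Eif5a was at 262 and 271 FPKM in input and at 374 and 370 FPKM in IP, and rose by 0.48 (SE 0.05; limma, adjusted p = 0.000204; -0.0027 and not past with quantile normalization). Eif5a2 was at 14.2 and 15.1 FPKM in input and at 23.5 and 21.9 FPKM in IP, a rise of 0.60 (SE 0.07; limma, adjusted p = 0.00036). The share of Eif5a2 in the pair was 5.15% and 5.26% in input and 5.9% and 5.59% in IP. Dhps, for the first enzyme, went from 26.5 and 24 to 45.3 and 47.4 FPKM, and Dohh, for the second, from 44.6 and 46.2 to 73.3 and 71.2 FPKM. Their rises were 0.85 and 0.66 (limma, adjusted p = 9.99e-05 and 9.24e-05), and after rescaling 0.53 and 0.33, with both still past the threshold.

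Of the elongation factors, the eEF1A pair shifted toward the neuronal form in IP. Of the 6 eEF1 genes 3 rose, 1 fell and 2 missed the threshold, where 37.0% of all genes tested rose and 33.9% fell. The median of the 6 was 0.18 as deposited and -0.15 after rescaling. Eef1a1, the form found in most cell types and the most abundant member per length in each library, was at 815 and 802 FPKM in input and at 649 and 684 FPKM in IP, without overlap, and fell by 0.28 on the log2 scale (SE 0.05; limma, adjusted p = 0.00255). Eef1a2, the form of neurons and muscle, was at 484 and 480 FPKM in input and at 643 and 598 FPKM in IP, and rose by 0.36 as deposited (SE 0.05; limma, adjusted p = 0.00115), with 0.02 after rescaling (not past) and -0.21 with quantile normalization (called lower). The share of Eef1a2 in the pair, which does not depend on a rescaling of the library, was 37.2% and 37.4% in input and 49.8% and 46.6% in IP. Its mean was 10.9 percentage points higher in IP, beside an SD of 0.126 in input and 2.24 in IP (exact permutation test, two-sided, p = 0.333, the smallest possible with 2 against 2). The glial marker levels given above moved with this share, and their part in it was not tested.

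The copies share 80.1% of coding bases and 92.4% of residues, with no shared run longer than 23 bases, under the 100 bp of a read. The 60 coding bases in which they differ most, coding bases 643 to 702 in each, are shown because the shift between the copies rests on reads that tell them apart (GENCODE M21, GRCm38, capitals where they differ).
Eef1a1: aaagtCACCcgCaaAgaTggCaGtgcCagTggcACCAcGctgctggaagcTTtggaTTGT
Eef1a2: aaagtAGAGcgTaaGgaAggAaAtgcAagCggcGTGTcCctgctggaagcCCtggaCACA
They differ at 22 of these 60 bases. Processed pseudogenes of Eef1a1 were not examined, and reads shared with them were not measured.

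The other Eef1 genes are those of the eEF1B exchange complex, which reloads eEF1A, and Eef1e1, which had the largest rise and is grouped here by its symbol. Eef1e1, whose product is better known as a part of the multi-tRNA synthetase complex, was at 28.4 and 26.7 FPKM in input and at 68.3 and 70.8 FPKM in IP. The IP mean was 2.52-fold that of input (1.30, SE 0.06; limma, adjusted p = 2.44e-05), and the change remained past the threshold in each setting, from 0.99 after rescaling upward among the scalings. The subunits of the exchange complex moved less. Eef1d rose from 18.5 and 16.6 to 22 and 22.6 FPKM (0.33; limma, adjusted p = 0.00588; 0.0049 after rescaling). Eef1b2 was at 46.5 and 44.5 FPKM in input and 46 and 47.2 FPKM in IP, overlapping (0.03; limma, adjusted p = 0.583), and Eef1g at 77.4 and 76.1 FPKM in input and 77.8 and 79.9 FPKM in IP (0.04; limma, adjusted p = 0.498). After rescaling both were called lower, each at -0.30.

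The translocase gene Eef2 and the gene of the kinase that inactivates it moved apart. Eef2 was at 232 and 233 FPKM in input and at 276 and 263 FPKM in IP (0.21, SE 0.05; limma, adjusted p = 0.00759). Leaving out input replicate 1 gave an adjusted p of 0.0575 (limma) and leaving out input replicate 2 gave 0.0532, and Eef2 was called lower after rescaling (-0.13) and with quantile normalization (-0.27). Eef2k, the kinase activated by calcium and calmodulin, was at 6.11 and 5.73 FPKM in input and at 3.45 and 3.13 FPKM in IP, and fell by 0.69 on the log2 scale (SE 0.08; limma, adjusted p = 0.000549). Eef2 stood at 38.1 and 40.7 times Eef2k in input and at 79.9 and 84.1 times in IP. This ratio also moves with transcript length, as Eef2 has 3089 bases and Eef2k 6580. After the length correction their changes were 0.17 and -0.42. The sum of Eef1a1 and Eef1a2 stood at 5.59 and 5.49 times Eef2 in input and at 4.68 and 4.87 times in IP.

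Longer transcripts tended to be lower in IP as deposited, over all genes and over the factors. Over the 12345 genes tested that had a length in GENCODE M21, Spearman's rho of length against change was -0.37, and over 56 members without Eif2s3y it was -0.29, given as descriptions over genes of the same 4 libraries. The long members stood above genes of like length: the 11 members of at least 4000 bases had a median change of 0.11, where the 4383 genes of that length had -0.23. For the 20 members under 2000 bases the median was 0.27, where 3035 genes had 0.35. Among the 5 members lower in IP, Eef2k, Eif3a and Eif4ebp2 are long and Eif4ebp3 and Eef1a1 are short. Eif4ebp2 was no longer called after the correction for length (-0.03; limma, adjusted p = 0.739), and the other 4 still were.

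**Figure D5:**
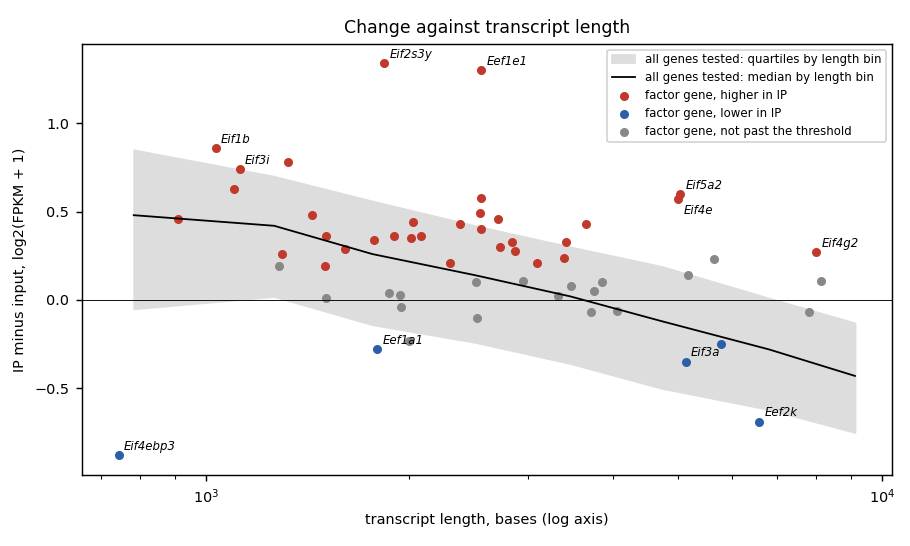
Change of each factor gene (IP minus input, log2(FPKM + 1)) against transcript length (log axis, bases), coloured by call, with the median and quartiles of all genes tested by length bin in grey. The median of all genes falls from 0.48 in the shortest bin to -0.43 in the longest, and Eif4ebp3, Eef1a1 and Eef2k lie under the grey band while Eef1e1, Eif4e and Eif5a2 lie above it.

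Many translation factor mRNAs are known to begin with a run of pyrimidines, the 5′ terminal oligopyrimidine tract through which mTOR controls their translation. A run of at least 8 bases that are C or T on the gene's strand, beginning from 5 bases before to 15 bases after the RefSeq start (GRCm38.p6), was found in 10 of the 45 members that matched a start (22.2%), against 10.9% of the 9388 genes tested with a start. The windows of the eEF1A genes and of the translocase are shown because these are classical members of this class, 30 bases from 5 before the start, with the tract in capitals.
Eef1a1: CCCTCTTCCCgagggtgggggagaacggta
Eef1a2: tctgcgttctcgctcactggTTCTCTCCCT
Eef2: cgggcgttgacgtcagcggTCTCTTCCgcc
The run of Eef1a1 begins 5 bases before the listed start and spans it, and those of Eef1a2 and Eef2 lie further in. The run of Eef1a2 is 11 bases long, and the window shown ends before the run does. Whether any of these runs is the terminal tract of the mRNA was not tested, and part of a run may lie outside the transcript. The windows are chr9:78481700-78481729 (minus strand), chr2:181156991-181157020 (minus strand) and chr10:81176626-81176655 (plus strand). The 10 members with a tract, which include Eif2s3y at 1.34, had a median change of 0.25. The 34 tested members without one had 0.31, while all genes tested had -0.01 with a tract and 0.04 without. Eif2s3y was tested through its IP level alone, and the median was not taken without it. A match to these letters is a description of the sequence and not of a measured start.

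Other genes of translation gave a frame for these values. Of 60 tested genes for release factors, cap and poly(A) partners, further initiation factors, modifying enzymes, eIF2 kinases and upstream signalling, 28 rose (46.7%, against 37.0% of all genes tested), 12 fell (20%, against 33.9%) and 20 did not pass, with a median of 0.17. After rescaling 13 were higher (21.7%, against 17.9%) and 25 lower (41.7%, against 53.9%). The counts varied with role. Among 15 genes that signal to eIF4E and eEF2, 3 rose, 8 fell and 4 did not pass (median -0.19). Mtor was at 10.4 and 12.1 FPKM in input and 8.18 and 8.54 FPKM in IP, and Cyfip1, whose product binds eIF4E together with FMRP, was at 10.7 and 12.4 FPKM in input and 5.15 and 4.75 FPKM in IP (-1.08; limma, adjusted p = 0.00014). Rheb, the activator of mTOR complex 1, went from 77.3 and 76.6 to 137 and 142 FPKM (0.85; limma, adjusted p = 3.71e-05). Of 8 tested eIF2 kinase and phosphatase genes and their partners, 4 rose and 2 fell. Atf4, the transcription factor translated when eIF2 is phosphorylated, rose by 1.00 (limma, adjusted p = 2.57e-05) from 100 and 102 to 200 and 206 FPKM.

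For the poly(A) end of the mRNA, the inhibitor gene Paip2 rose and the gene of its target, poly(A)-binding protein 1, fell. Paip2 was at 102 and 99.2 FPKM in input and at 212 and 223 FPKM in IP (1.11; limma, adjusted p = 2.44e-05; 0.77 after rescaling). Pabpc1 was at 25.3 and 26.2 FPKM in input and at 15.7 and 15 FPKM in IP and fell by 0.71 (limma, adjusted p = 0.000132). Both come from a list of 9 cap and poly(A) partners, of which 6 rose, 2 fell and 1 did not pass. Over all genes tested 37.0% rose and 33.9% fell. Pabpc4 rose by 0.23 (limma, adjusted p = 0.0369; -0.05 after rescaling) and Paip1 by 0.50 (limma, adjusted p = 0.00063; 0.18 after rescaling). The 38 aminoacyl-tRNA synthetase genes had 20 higher (52.6%), 2 lower (5.26%) and a median of 0.27, beside 0.26 for the factors, and the 81 tested genes of cytosolic ribosomal proteins had 27 higher (33.3%), 17 lower (21%) and a median of 0.06. After rescaling the 3 medians were -0.07, -0.08 and -0.28 in the same order. The difference between these lists was not tested.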

How the data were processed

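RNA-seq values of 2 IP and 2 input libraries were used. Per the labels' protocols and the series' design text, libraries were made from 200 ng of RNA with a TruSeq RNA kit and read as 100 bp single-end reads. The authors aligned them with TopHat to mm10 and deposited gene-level FPKM from Cufflinks with confidence limits, per the file headers and the submitters' processing notes (no versions given). The authors' Cuffdiff results were not used. Cufflinks' use of strand was not given in the sources used here. Groups and replicate numbers follow the sample titles. The source description of IP replicate 2 says replicate 1. Samples were treated as paired by number in a blocked alternative, since the design text gives each IP a corresponding input, and deviations from the group means of libraries with the same number correlated at 0.159 across genes. The Y-linked RNA described above differed within both pairs.

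Of 24490 entries a library, 8 failed entries and 1284 with small RNA names were left out, and the entry with the highest mean was kept for a symbol. The 12416 genes at 1 FPKM or more in 2 or more libraries were tested as log2(FPKM + 1), which understates changes of low genes. The test was limma 3.58.1 (R 4.3.3) with eBayes and a trend, two-sided, without a block, adjusted by Benjamini-Hochberg over these genes, at a threshold of 0.05. Folds and ratios are of FPKM. FPKM are not counts, and the files give no read totals, so depth is unknown. The authors' confidence limits had a median half-width of 5.16% to 5.62% of the value for members at 1 FPKM or more. The p-values rest on 2 pools a group, and whether the pools were independent in other ways is not stated. Precipitates without the tag were not analysed here. On simulated data for 12416 genes, 32% of 100 true changes of 0.5 and 75% of 100 true changes of 1.0 on the log2 scale were recovered, with 4 false calls. The simulation changed only these genes and shuffled the SDs over genes, while in the data 4597 genes were called higher and 4205 lower. Its recovery and false calls therefore do not carry over to this comparison.

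The members, gene lists and complexes were chosen with earlier results of these data known. The rule for named genes was every member, with values for each library for fixed paralog sets and for the highest and lowest change within a complex. The other genes named, Eef1d, Eif4h, Eif4b, Eif2b1, Eif2b2 and genes of the other lists among them, were chosen after their values were seen. Transcript lengths and coding sequences came from GENCODE M21 (lengths for 99.4% of genes tested), start windows from RefSeq. Coordinates are mm10, 1-based. Further tools were Python 3.11.15 with biopython 1.88, pandas 2.3.3, scipy 1.17.1, numpy 2.4.6 and matplotlib 3.10.9. Alternatives were pseudocounts of 0.1 and 5, the filter raised to 5 FPKM or dropped, rescaling, median-of-ratios and quantile scaling, a replicate block, eBayes without trend or robust, summed entries, a length correction and each library left out.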

Additional observations from a re-analysis of the deposited data

How the results depend on the processing

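Scaling between libraries moved these results most. After rescaling to a sum of 1000000, 10 factor genes were higher and 22 lower (median -0.08), 2227 of all genes were higher and 6692 lower, and 13 other translation genes were higher and 25 lower. With quantile normalization 16 factor genes were higher and 15 lower (median -0.02), and with the length correction 9 were lower (median 0.15). With a filter at FPKM of 5, 2437 of all genes were lower, as fewer genes were tested. With 1 library left out, 29 to 33 factor genes were higher and 4 to 5 lower, with medians of 0.24 to 0.30. With the replicate block, 35 factor genes were higher and 5 lower, with Eif3m and Eif4g1 added, and the block ended no call of a member. Under 2 other pseudocounts, no filter, summed entries and the other eBayes options, the 57 members kept their direction and side of the threshold. With median-of-ratios size factors they kept their side of the threshold, and Eif2d (-0.01) and Eif3e (-0.02) changed sign.

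The sign changed after rescaling for the log2 change of Eef1b2 (-0.30), Eef1g (-0.30), Eef2 (-0.13), Eif1a (-0.05), Eif1ax (-0.20), Eif2a (-0.11), Eif2b2 (-0.04), Eif2b3 (-0.27), Eif2d (-0.31), Eif3b (-0.22), Eif3c (-0.09), Eif3e (-0.33), Eif3f (-0.23), Eif3h (-0.08), Eif3m (-0.13), Eif4a1 (-0.0011), Eif4b (-0.23), Eif4e2 (-0.25), Eif4g1 (-0.10), Eif4g2 (-0.07), Eif4g3 (-0.22), Eif4h (-0.04) and Eif6 (-0.14). With quantile normalization it changed for Eef1a2 (-0.21), Eef1b2 (-0.27), Eef1g (-0.32), Eef2 (-0.27), Eif1ax (-0.17), Eif2d (-0.06), Eif3b (-0.13), Eif3c (-0.10), Eif3e (-0.22), Eif3f (-0.24), Eif3h (-0.11), Eif4a1 (-0.02), Eif4a2 (-0.02), Eif4b (-0.23), Eif4e2 (-0.07), Eif4e3 (0.02), Eif4ebp1 (0.11), Eif4g1 (-0.07), Eif4g2 (-0.10), Eif4g3 (-0.15), Eif4h (-0.18), Eif5a (-0.0027) and Eif6 (-0.04). With the length correction it changed for Eef1b2 (-0.18), Eef1g (-0.19), Eif2b2 (-0.00096), Eif3e (-0.31), Eif3f (-0.01), Eif3h (-0.11), Eif3k (-0.01), Eif3m (-0.18), Eif5 (0.02), Eif5b (0.28) and Eif6 (-0.13). With 1 library left out, values that crossed 0 ran from -0.02 to 0.30 for Eif1ax, -0.03 to 0.07 for Eif2d, -0.06 to 0.07 for Eif3e, -0.08 to 0.0028 for Eif3l and -0.01 to 0.16 for Eif4e2. Which scaling is right cannot be told from these files, and the cause of each change was not tested.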
